A study of Mus musculus with 12 samples.

Results

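The question asked here was whether the transcriptome of calvarial osteoblasts changed differently between day 1 and day 3 of osteogenic culture in wild-type (WT) cells and in cells lacking Bcl3. For every gene the change between the days in WT cultures was subtracted from the change in cultures labelled Bcl3-/-, which gives an interaction on the log2 scale. A negative interaction means a smaller rise or a larger fall in the cultures labelled Bcl3-/-, and a positive one the reverse. Of 49585 genes in the count table, 16318 had enough reads to be tested and 292 were called at an adjusted p under 0.05 by edgeR's quasi-likelihood test, which is 1.79% of the genes tested. All 12 libraries of the series entered the test.

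The libraries formed 4 groups of 3, WT and Bcl3-/- on each of the 2 days. Osteoblasts were released with collagenase from the calvariae of neonatal pups of postnatal day 3 to 5, and were expanded and grown to confluence. The labels give between 1 and 3 calvariae per replicate, whereas the supplementary methods give only the upper end of that range. On day 0 both genotypes received the same osteogenic medium, with 50 µg/mL ascorbic acid and 2 mM β-glycerophosphate, and cells were lysed on day 1 and day 3. The strain in the labels is C57BL/6J. According to the study's methods the WT mice were littermates. The supplementary methods add that timed matings of the genotypes were matched for age and run at the same time. Whether cultures of both genotypes came from the same litters is not given. The culture codes in the labels recur on both days, so that each of the 6 cultures gave 1 library on each day and each genotype had 3 changes over time. Primary calvarial cells are a mixture, and in bulk RNA a change in the number of cells of one type cannot be told apart from a change in RNA per cell.

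Calvarial osteoblasts pass through proliferation, deposition of a collagen matrix and then mineralization, a sequence driven by Runx2 and Sp7 and started in culture by ascorbic acid and a phosphate donor. Bcl3 is an atypical member of the IκB family that binds p50 and p52 homodimers of NF-κB in the nucleus and alters transcription of their targets. Other programs that come up below are the type I interferon response, in which transcription factors below the interferon receptor drive antiviral genes, and the sterol response, in which SREBP-2 drives the cholesterol pathway when membrane sterol is low.

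Counts assigned to genes lay between 20009732 and 41953891 per library, with a median of 31792039. Bcl3 itself (ENSMUSG00000053175, chromosome 7, 19808462 to 19822770, minus strand, GRCm38) stood at 18.0, 21.8 and 17.8 CPM (counts scaled to a common library total) in the day 1 WT libraries and at 17.5, 19.7 and 19.2 CPM in the libraries labelled Bcl3-/- on the same day. On day 3 it stood at 14.8, 15.9 and 12.8 CPM in WT and at 10.2, 9.72 and 8.31 CPM in the libraries labelled Bcl3-/-. The genotypes overlapped on day 1 and were apart on day 3, and the interaction of -0.59 (standard error, SE, 0.14, adjusted p = 0.0921) did not pass the test. On day 1 the level of Bcl3 thus did not separate the genotypes, and the exons that the allele lacks are not given in the sources used here, so the groups are called by their labels throughout and every direction below rests on those labels. The 14 markers of the osteoblast lineage summed to between 34442 and 78076 CPM. Their mean lay between 5.21 and 6.05 log2 CPM per library, so the sum rests on the most abundant markers and does not show that each was abundant.

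The calls were one-sided in direction. The change over time was lower in cultures labelled Bcl3-/- for 239 genes (1.46% of those tested) and higher for 53 (0.325%), and the median interaction over all tested genes was -0.02. Among the 239, the median change was 1.52 in WT and 0.36 in cultures labelled Bcl3-/-. In 96 of them the gene rose in WT and did not pass in cultures labelled Bcl3-/-, in 100 it rose in both, and in 23 it rose in WT and fell in the other genotype. Among the 53 that were higher, the median change was -0.92 in WT against -0.09, with 20 genes that fell in WT and did not pass in cultures labelled Bcl3-/- and 18 that fell in both. The changes over time as such were far more frequent, with 40.2% of genes called in WT and 35.1% in cultures labelled Bcl3-/-.

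**Figure D1:**
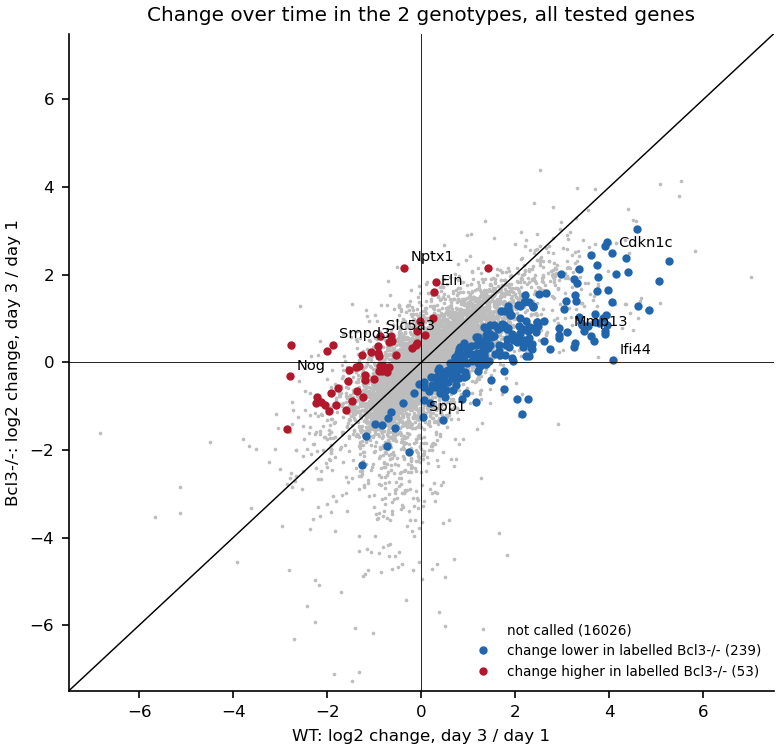
Log2 change between day 1 and day 3 for WT (horizontal axis) and in cultures labelled Bcl3-/- (vertical axis) for the tested genes, each point a gene, with the diagonal marking equal change. The 239 blue genes lie below the diagonal and the 53 red genes above it, and most blue genes lie to the right of 0.

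Another way to read the same genes is by the gap between genotypes on each day, given here as a description because the day 1 libraries enter both the gap and the interaction. Of the 239 genes with a lower change, 227 were already higher in the libraries labelled Bcl3-/- on day 1, with a median gap of 1.15 log2 units, and by day 3 the median gap was -0.21. The gap narrowed in 125 of these genes, crossed to the opposite sign by at least 0.25 log2 units on both days in 94, and widened in 20. Of the 53 genes with a higher change, 42 were lower in the libraries labelled Bcl3-/- on day 1, with a median gap of -0.68, and the median on day 3 was 0.30. Here 26 gaps narrowed, 14 crossed and 13 widened.

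**Figure D2:**
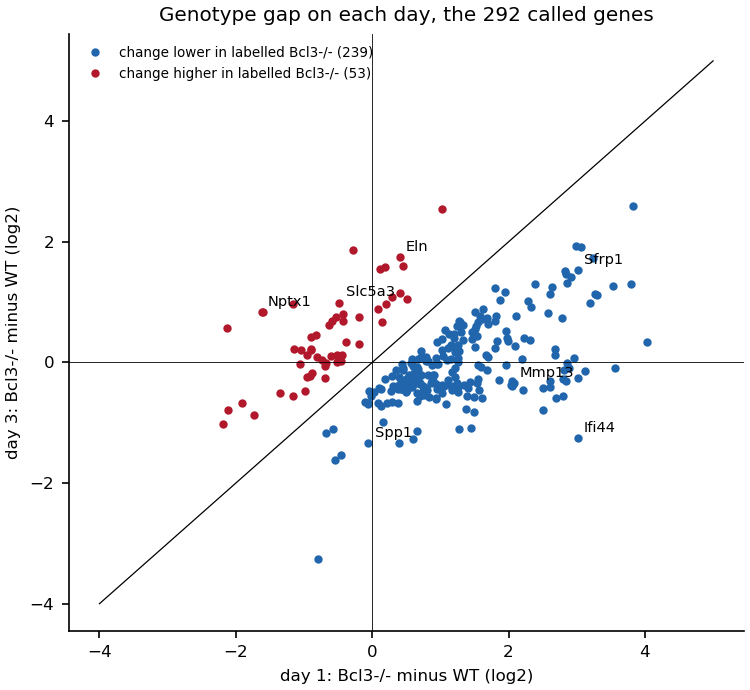
Genotype gap in mean log2 CPM (labelled Bcl3-/- minus WT) on day 1 (horizontal axis) and day 3 (vertical axis) for the 292 called genes, with the diagonal marking an unchanged gap. The 239 blue genes lie mostly to the right of 0 on day 1 and scatter around 0 on day 3.

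How many genes passed depended on single cultures. With WT culture 1 left out no gene was called by edgeR (1560 at an unadjusted p under 0.05), and 2 genes were called without WT culture 2 or without Bcl3-/- culture 2, whereas 394, 554 and 538 were called without WT culture 3, Bcl3-/- culture 1 and Bcl3-/- culture 3. Without the culture block 183 genes were called. The 3 changes of 1 genotype and the 3 of the other did not overlap in any of the 292 genes, nor in 20.3% of all tested genes. Just inside the threshold stood H2-T22 with an adjusted p of 0.0494 and just outside it Ugt1a7c with 0.0508. The cultures labelled Bcl3-/- stood further along the first principal component of all tested genes, in the direction in which both genotypes later moved, at -9.98, -16.2 and -18.5 on day 1 against -75.4, -66.9 and -45.4 for WT. The steps from day 1 to day 3 overlapped. Along this component (55.8% of the variance) the WT cultures moved by 71.8, 82.67 and 71.58 units and the cultures labelled Bcl3-/- by 59.08, 89.69 and 89.7, a difference of 4.14 (two-sided exact permutation test, n = 3 cultures per genotype, p = 0.8, where 0.1 is the smallest p possible).

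Interferon-stimulated genes made up the largest group with a shared direction. Of 50 measured, 31 passed with a lower change in cultures labelled Bcl3-/-, none passed with a higher one (percent called over all genes 1.46% and 0.325%), and 49 had an interaction below 0. The median interaction of the list was -2.06, beside -0.02 over all genes, and the median change was 2.79 in WT against 0.62 in cultures labelled Bcl3-/-. In WT 48 of the 50 rose and in cultures labelled Bcl3-/- 11 rose, beside 3455 and 2793 of all 16318 tested genes. The list average in log2 CPM stood at 2.08, 2.48 and 3.54 in the day 1 WT libraries and at 4.35, 4.43 and 5.04 in the day 1 libraries labelled Bcl3-/-. By day 3 the WT libraries had reached 5.65, 5.58 and 5.44, and the libraries labelled Bcl3-/- lay just below them at 5.38, 5.15 and 5.05. The largest shift thus lay in WT cultures 1 and 2, and Bcl3-/- culture 3, which started highest, had a mean change of 0.01.

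**Figure D3:**
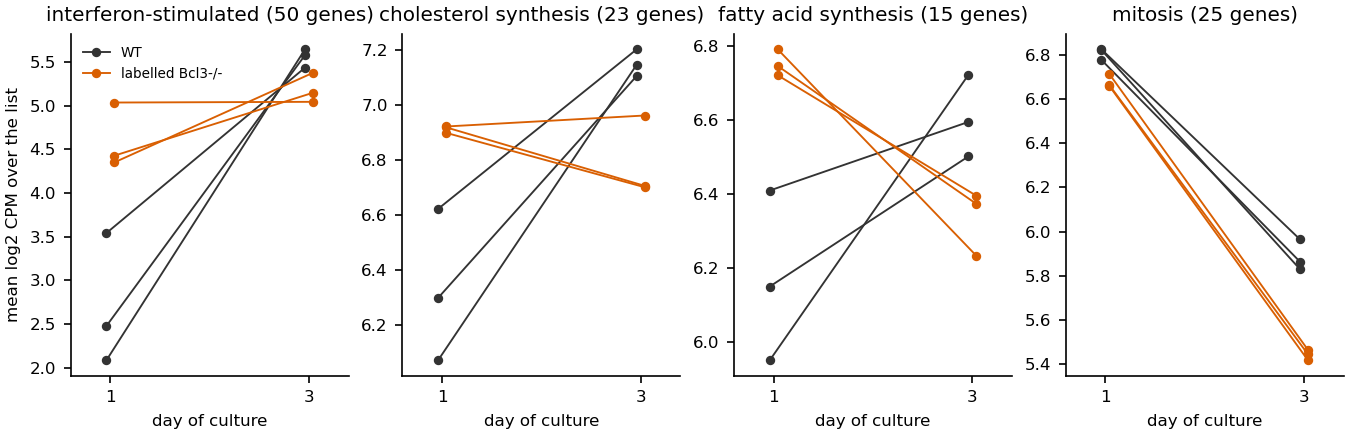
Mean log2 CPM over 4 gene lists (vertical axis) on day 1 and day 3 (horizontal axis), with a line for each culture. The interferon and cholesterol lists climb in the 3 WT cultures, the fatty acid list falls in the 3 cultures labelled Bcl3-/-, and the mitosis list falls in all 6.

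Mx2, a dynamin-like antiviral GTPase (chromosome 16, 97535308 to 97560900, plus strand) that the annotation classes as a polymorphic pseudogene, had 0.407, 0.41 and 1.09 CPM in WT on day 1 and 10.7, 10.4 and 7.95 CPM on day 3. In the libraries labelled Bcl3-/- it had 3.26, 2.80 and 4.91 CPM on day 1 and 6.37, 4.79 and 5.52 CPM on day 3. The genotypes did not overlap on either day and their order reversed, with an interaction of -3.27 (SE 0.47, adjusted p = 0.0254).

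Ifi44, an interferon-induced cytoskeleton-associated protein, had the lowest interaction of all called genes. Its levels were 1.85, 2.96 and 12.4 CPM in WT on day 1 and 107.6, 78.6 and 66.1 CPM on day 3, against 24.95, 28.8 and 52.9 CPM and then 40.0, 33.1 and 31.4 CPM in the libraries labelled Bcl3-/-. The WT change was 4.08 and the other 0.05, and the interaction was -4.03 (SE 0.74, adjusted p = 0.0423). Its WT day 1 libraries were spread widely, and replicate 3 held more than the others.

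Regulators of the response took part along with its effectors. Irf7, the transcription factor that amplifies type I interferon, rose by 3.90 in WT and changed by 0.71 in cultures labelled Bcl3-/- (interaction -3.19, SE 0.64, adjusted p = 0.0488). Usp18, the protease that removes ISG15 and damps receptor signaling, had an interaction of -3.19 (SE 0.64). Dhx58, which encodes the RNA sensor LGP2, had one of -2.90 (SE 0.49), and Zbp1, a sensor of Z-form nucleic acid, one of -3.10 (SE 0.59). Each of these rose in WT and did not pass in cultures labelled Bcl3-/-. The oligoadenylate synthetase genes Oas2 and Oas1b also rose in WT without passing in the other genotype, with interactions of -3.02 (SE 0.60) and -2.89 (SE 0.52). Both were low in WT on day 1, Oas2 at 0.407, 0.524 and 2.34 CPM and Oas1b at 0.226, 0.455 and 1.305 CPM. The annotation classes Oas1b as a polymorphic pseudogene.

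Other members had smaller interactions and tighter replicates. Ifit2, which binds viral RNA, stood at 15.3, 13.2 and 19.0 CPM in WT on day 1 and at 62.9, 54.9 and 50.1 CPM on day 3, against 27.7, 28.9 and 33.5 CPM and then 43.1, 40.6 and 46.9 CPM in the libraries labelled Bcl3-/-. It rose in both genotypes and the interaction was -1.29 (SE 0.17, adjusted p = 0.0212). Ifi203, of the PYHIN family, rose by 3.27 in WT and 1.55 in cultures labelled Bcl3-/- and stayed higher in the latter on day 3. Its exons overlap those of Mndal on the same strand, and reads from the shared stretch cannot be assigned to 1 gene with certainty. Samd9l, a restriction factor, had an interaction of -1.75 (SE 0.25), and Slfn8, of the schlafen family and not on the list, one of -2.84 (SE 0.53).

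The guanylate-binding proteins and immunity-related GTPases, which attack vacuoles of intracellular pathogens, followed the same course. Of 14 measured 7 passed (50%, beside 1.79% of all tested genes), all lower, and the median interaction was -1.92. Gbp3 stood at 3.21, 6.44 and 15.2 CPM in WT on day 1 and 119.2, 109.6 and 98.6 CPM on day 3, whereas the libraries labelled Bcl3-/- held 37.8, 45.6 and 76.2 CPM and then 113.6, 102.9 and 92.1 CPM. The day 1 libraries were apart and the day 3 libraries overlapped, and the interaction was -2.85 (SE 0.56, adjusted p = 0.0476). Gbp7 had an interaction of -2.31 (SE 0.40), Gbp2 of -1.59 (SE 0.31) and Gbp9 of -1.55 (SE 0.26), the last with exons shared with Gbp4 and Gbp8.

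Presentation on MHC class I involved fewer calls, 5 of 18 (27.8%, beside 1.79% of all tested genes), again all lower, with a median interaction of -0.64. Erap1, the aminopeptidase that trims peptides in the endoplasmic reticulum, rose by 1.38 in WT and by 0.62 in cultures labelled Bcl3-/- (interaction -0.76, SE 0.09, adjusted p = 0.0198). Tap1, a subunit of the peptide transporter, stood at 38.1, 35.0 and 47.1 CPM and then 103.4, 86.1 and 82.0 CPM in WT, against 59.7, 62.1 and 78.8 CPM and then 72.6, 64.3 and 69.7 CPM, and had an interaction of -1.13 (SE 0.18). Tapbp, which docks class I molecules to that transporter, had one of -0.85 (SE 0.13), and Nlrc5, the transactivator of class I genes, one of -1.39 (SE 0.27). Tap1 overlaps Psmb9, and Erap1 overlaps Cast, on the opposite strand, and reads of such pairs cannot be told apart where the counting setting for strand is not known.

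The interferon counts depended on the same cultures as the total, and also on the filter and the measure. With a floor of 1 CPM in 6 libraries 13 of the 50 were called. On log2(FPKM + 1) or log2(FPKM + 0.1) 7 were, and with FPKM filtered at 1 in 3 libraries 0 were by limma. DESeq2 with the block called 46, and the fit with no count filter 48. In each of these fits 49 of the 50 interactions were below 0. Without WT culture 1, WT culture 2 or Bcl3-/- culture 2 none of the 50 interferon-stimulated genes was called by edgeR, and without the other cultures 28 to 44 were. The list median lay between -1.75 and -2.58 in all 6 fits that left out a culture. Macrophage markers, whose carriers produce and answer interferon, were measured beside them. Over the 24 markers the mean log2 change was 0.99, 1.30 and 1.05 in the WT cultures and 1.14, 0.40 and -0.29 in the cultures labelled Bcl3-/-, none of the 24 was called for the interaction and their median was -0.57. Their summed level ranged from 413.8 to 650.7 CPM on day 1 and from 965.8 to 1397 CPM on day 3 in WT, and from 483.1 to 546.6 CPM and from 569.8 to 1141 CPM in the libraries labelled Bcl3-/-, with no marker at 0 in all libraries. Their part in the interferon result was not tested.

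Promoter windows of RefSeq (GRCm38.p6, from 250 bases before to 50 after the annotated start) were searched on both strands for the core of the interferon-stimulated response element, GAAANNGAA. A window was found for 11476 of the 16318 tested genes, of which 8.89% held a match. Among the genes called lower with a window, 40 of 173 (23.1%) held one, and outside the 3 interferon-related lists 22 of 144 (15.3%) did, against 2 of 36 (5.56%) of those called higher. The lists do not hold every interferon-related gene, and Slfn8, named above and outside them, held a match. Within the interferon-stimulated list 21 of 37 held a match, and 9 of 9 among the guanylate-binding proteins and immunity-related GTPases. For the NF-kB site consensus the shares were 12.3% of all genes, 15% of those called lower and 27.8% (10 of 36) of those called higher. A match is a stretch of letters and no evidence of binding.

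The windows of 3 interferon-regulated genes named above are shown 5′ to 3′ on the strand of the gene, with the matched letters in capitals. All 3 had lower changes and were picked for display, so that each of them holds a match is not a result. Among the interferon-stimulated genes called lower, 12 of the 21 with a window (57.1%) held one. The windows of Irf7, Ifit2, Tap1 and Tapbp, which also had lower changes, held none. Some matches read on the opposite strand and then appear as TTCNNTTTC.

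Ifi44, chr3:151749861-151750160, minus strand: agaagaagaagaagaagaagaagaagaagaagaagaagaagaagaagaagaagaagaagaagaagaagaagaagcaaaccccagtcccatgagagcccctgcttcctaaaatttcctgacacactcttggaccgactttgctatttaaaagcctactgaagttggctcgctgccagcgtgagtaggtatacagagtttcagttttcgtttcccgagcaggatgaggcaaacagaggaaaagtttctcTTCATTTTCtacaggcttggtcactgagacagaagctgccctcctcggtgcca

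Samd9l, chr6:3399522-3399821, minus strand: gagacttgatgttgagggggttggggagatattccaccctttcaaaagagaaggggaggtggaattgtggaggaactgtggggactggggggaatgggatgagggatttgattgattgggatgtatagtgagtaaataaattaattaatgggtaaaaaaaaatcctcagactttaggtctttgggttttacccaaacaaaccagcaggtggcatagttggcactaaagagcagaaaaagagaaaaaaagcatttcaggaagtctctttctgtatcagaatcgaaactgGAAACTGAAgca

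Gbp2, chr3:142620413-142620712, plus strand: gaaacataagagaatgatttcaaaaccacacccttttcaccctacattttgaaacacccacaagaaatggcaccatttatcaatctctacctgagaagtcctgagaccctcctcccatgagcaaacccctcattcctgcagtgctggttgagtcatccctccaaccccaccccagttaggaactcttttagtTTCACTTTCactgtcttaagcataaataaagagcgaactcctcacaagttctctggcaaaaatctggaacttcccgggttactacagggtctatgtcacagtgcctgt

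Genes of cholesterol synthesis and uptake had the highest share of calls among the lists (78.3%, beside 1.79% of all tested genes). Of 23 measured, 18 passed with a lower change in cultures labelled Bcl3-/-, none with a higher one, and all 23 had an interaction below 0 with a median of -0.90. In WT 22 of them rose, with a median change of 0.80, whereas in cultures labelled Bcl3-/- 1 rose, 6 fell and the median was -0.12. Over all 16318 tested genes 3455 rose in WT, and 2793 rose and 2940 fell in cultures labelled Bcl3-/-. The list average stood at 6.07, 6.30 and 6.62 log2 CPM in the day 1 WT libraries and at 7.15, 7.11 and 7.20 on day 3. In the libraries labelled Bcl3-/- it stood at 6.92, 6.92 and 6.90 on day 1 and at 6.96, 6.71 and 6.70 on day 3, so that WT was below on day 1 and above on day 3.

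Hmgcs1, which makes HMG-CoA at the entry of the pathway (chromosome 13, 119690379 to 119708260, plus strand), had 305.8, 363.6 and 460.3 CPM in WT on day 1 and 770.1, 749.7 and 851.1 CPM on day 3. In the libraries labelled Bcl3-/- it had 608.1, 611.3 and 583.5 CPM and then 678.9, 563.4 and 602.7 CPM. Neither day overlapped and the order reversed, with an interaction of -1.06 (SE 0.13, adjusted p = 0.0198).

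Later steps gave the same picture. Idi1, the isomerase that interconverts the isoprenoid units, rose by 0.82 in WT and changed by -0.16 in cultures labelled Bcl3-/- (interaction -0.98, SE 0.12). Tm7sf2, a sterol reductase, rose by 1.24 in WT and changed by -0.08 (interaction -1.32, SE 0.14, adjusted p = 0.0158), and it shares exon sequence with Vps51 on the same strand. The sterol regulatory element TCACNCCAC was found in the window of 1 of the 15 cholesterol genes with a window (6.67%), Hmgcs1, against 1.39% of all genes. It was found in 0 of the 12 fatty acid genes with a window and in 5 of the 173 genes called lower (2.89%). A single match does not tie the element to the cholesterol list. The Hmgcs1 window is shown with the match in capitals.

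Hmgcs1, chr13:119690101-119690400, plus strand: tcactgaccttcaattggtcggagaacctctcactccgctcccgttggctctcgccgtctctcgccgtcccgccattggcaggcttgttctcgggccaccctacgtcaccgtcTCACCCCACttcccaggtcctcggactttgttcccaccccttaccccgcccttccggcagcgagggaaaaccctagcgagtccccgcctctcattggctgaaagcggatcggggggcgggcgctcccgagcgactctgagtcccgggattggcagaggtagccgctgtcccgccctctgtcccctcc

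Genes of fatty acid synthesis and desaturation had median changes of 0.34 in WT and -0.52 in cultures labelled Bcl3-/-. Of 15 genes 6 passed (40%, beside 1.79% of all tested genes), all lower, with a median interaction of -0.78. In cultures labelled Bcl3-/- 11 of the 15 fell and in WT 1 fell, beside 2940 and 3109 of all 16318 tested genes. Scd1, the stearoyl-CoA desaturase, had 147.5, 205.8 and 271.6 CPM in WT on day 1 and 328.1, 254.7 and 258.5 CPM on day 3. In the libraries labelled Bcl3-/- it went from 406.3, 446.1 and 426.2 CPM to 196.4, 158.5 and 163.1 CPM. The genotypes were apart on both days in opposite order, and the interaction was -1.77 (SE 0.28, adjusted p = 0.0314).

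Fads2, the delta-6 desaturase, rose by 0.50 in WT and fell by 0.80 in cultures labelled Bcl3-/- (interaction -1.30, SE 0.18). Acss2 and Acly, which supply cytosolic acetyl-CoA, rose in WT and fell in cultures labelled Bcl3-/-, with interactions of -1.66 (SE 0.24) and -1.01 (SE 0.17), and Acss2 overlaps Ggt7 on the opposite strand. Without WT culture 1, WT culture 2 or Bcl3-/- culture 2 no member of either lipid list was called by edgeR. Over the 6 leave-out fits the median of the cholesterol list was at or below -0.755 and that of the fatty acid list lay between -0.62 and -0.89.

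Among proteases and their inhibitors the changes went in opposite directions. Mmp13, the collagenase of osteoblasts and hypertrophic chondrocytes (ENSMUSG00000050578, chromosome 9, 7272514 to 7283331, plus strand), had the smallest p of all genes. Its levels were 123.3, 93.1 and 142.4 CPM in WT on day 1 and 1121, 979.0 and 953.4 CPM on day 3, and 427.7, 513.1 and 558.2 CPM and then 748.5, 682.5 and 997.8 CPM in the libraries labelled Bcl3-/-. On day 1 the genotypes were apart by 2.08 log2 units and on day 3 they overlapped. It rose by 3.11 in WT and by 0.69 in cultures labelled Bcl3-/-, with an interaction of -2.42 (SE 0.18, adjusted p = 0.00629), and it was called in 5 of the 6 fits that left out a culture. Mmp3, stromelysin, had a similar interaction of -2.47 (SE 0.53) that did not pass (adjusted p = 0.0622).

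The Mmp13 window held 2 overlapping matches to the response element core on the opposite strand, here in capitals as 1 run. It is shown because the gene led the ranking while standing outside the interferon lists.

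Mmp13, chr9:7272264-7272563, plus strand: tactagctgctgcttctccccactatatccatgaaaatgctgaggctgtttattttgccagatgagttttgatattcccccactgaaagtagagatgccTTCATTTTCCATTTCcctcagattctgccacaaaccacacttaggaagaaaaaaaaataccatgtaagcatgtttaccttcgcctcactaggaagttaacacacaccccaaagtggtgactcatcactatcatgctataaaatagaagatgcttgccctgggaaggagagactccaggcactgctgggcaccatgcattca

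Timp3, a matrix-bound inhibitor of metalloproteinases, moved the other way. It fell from 1460, 1116 and 863.1 CPM to 411.6, 405.3 and 465.5 CPM in WT, and in the libraries labelled Bcl3-/- it went from 632.0, 694.9 and 572.2 CPM to 487.1, 662.8 and 628.6 CPM. The interaction was 1.29 (SE 0.22, adjusted p = 0.0381), and the gene lies opposite Syn3. These 2 were the only calls among 22 proteases and inhibitors (9.09%, beside 1.79% of all tested genes).

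**Figure D4:**
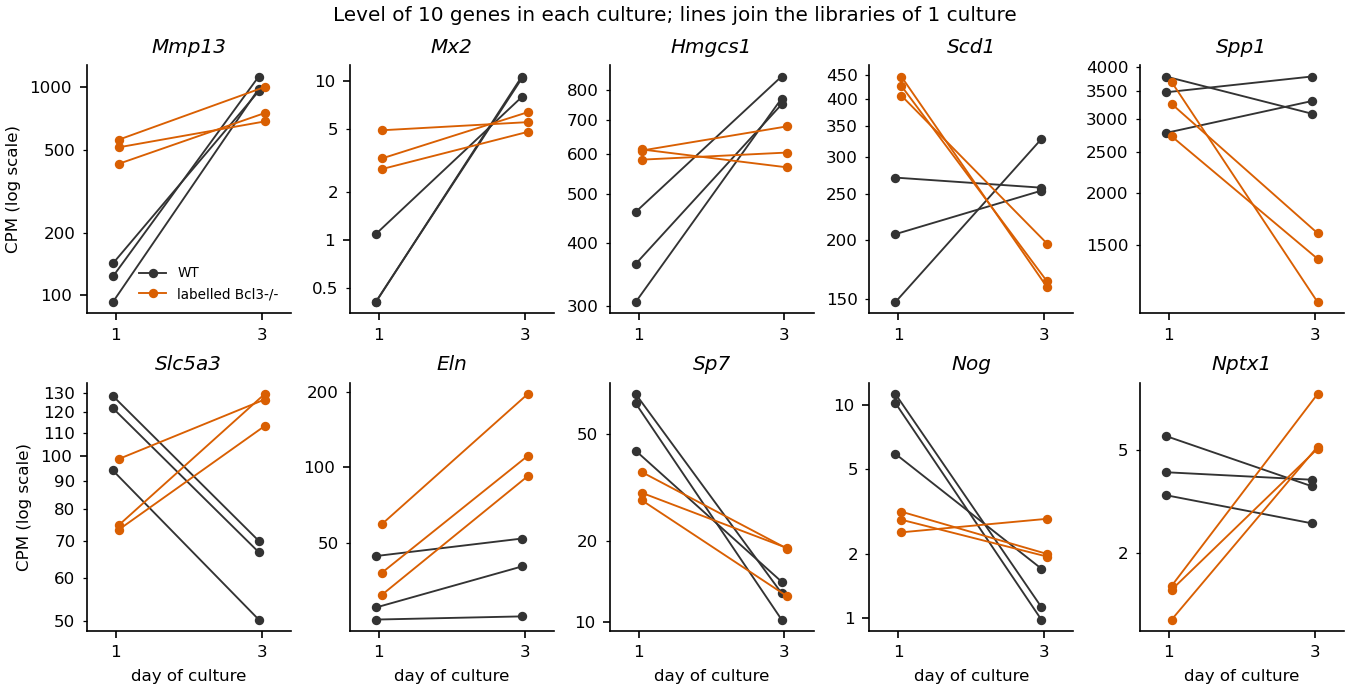
CPM of 10 genes (vertical axes, log scale) on day 1 and day 3 (horizontal axes), with a line for each culture, WT in grey and labelled Bcl3-/- in orange. Mmp13, Mx2 and Hmgcs1 start higher in the cultures labelled Bcl3-/- and climb less, whereas Slc5a3, Eln and Nptx1 climb more there.

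Fibrillar matrix genes contributed 5 lower and 1 higher call of 38 (15.8%, beside 1.79% of all tested genes), with a median interaction of -0.30. Col14a1, a collagen that sits on fibril surfaces, stood at 6.24, 7.38 and 15.2 CPM in WT on day 1 and 65.2, 76.5 and 125.8 CPM on day 3, against 54.2, 78.4 and 61.4 CPM and then 186.8, 267.3 and 268.6 CPM. It rose in both genotypes, by 3.26 and 1.89, and the libraries labelled Bcl3-/- were above WT on both days (interaction -1.36, SE 0.14, adjusted p = 0.0158). Postn, periostin of the periosteum, rose by 2.18 and 1.38 (interaction -0.80, SE 0.10), and Fbln1, fibulin 1, rose by 1.13 in WT and changed by 0.17, which did not pass, in cultures labelled Bcl3-/- (interaction -0.96, SE 0.17). Lum and Aspn, small leucine-rich proteoglycans, had interactions of -1.06 (SE 0.21) and -1.09 (SE 0.21) and were named, like Tgfb2 below, after their values had been seen.

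Eln, which encodes elastin, was the call in the other direction. WT libraries held 24.7, 44.3 and 27.6 CPM on day 1 and 25.5, 52.0 and 40.3 CPM on day 3, and the libraries labelled Bcl3-/- held 38, 59.4 and 31.0 CPM and then 111.0, 195.8 and 92.2 CPM. The genotypes overlapped on day 1 and not on day 3, and the interaction was 1.34 (SE 0.13, adjusted p = 0.0158). Adamts2, the procollagen N-proteinase, had an interaction of -0.63 (SE 0.11). It was the only call of 20 genes for collagen processing (5%, beside 1.79% of all tested genes).

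Among osteoblast genes 1 of 20 transcription factors was called (5%, beside 1.79% of all tested genes), with a median interaction of 0.09, and 3 of 24 matrix and mineralization genes (12.5%), with a median of -0.12. Sp7, or osterix (chromosome 15, 102356606 to 102367182, minus strand), went from 65.2, 70.6 and 43.4 CPM to 10.2, 12.8 and 14.1 CPM in WT and from 30.3, 28.4 and 36.2 CPM to 18.8, 12.4 and 18.7 CPM in the libraries labelled Bcl3-/-. It fell in both, from a day 1 level that was higher in WT to overlapping levels on day 3, and the interaction was 1.31 (SE 0.26, adjusted p = 0.0482). Dlx3 had a larger interaction of 2.33 (SE 0.59) at under 1 CPM in every library that did not pass (adjusted p = 0.098), and Msx2, a homeobox factor of the calvaria, had -0.57 (SE 0.13, adjusted p = 0.0768).

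Spp1, osteopontin (chromosome 5, 104435118 to 104441050, plus strand), differed on day 3. WT libraries held 2782, 3482 and 3799 CPM and then 3317, 3799 and 3095 CPM, and the libraries labelled Bcl3-/- went from 3265, 2730 and 3684 CPM to 1600, 1389 and 1094 CPM. It did not pass in WT (0.03), fell by 1.25 in cultures labelled Bcl3-/- and had an interaction of -1.28 (SE 0.22, adjusted p = 0.0369). Tnn, tenascin W of the periosteal matrix, fell in both, by 1.91 in WT and 0.69 in cultures labelled Bcl3-/- (interaction 1.22, SE 0.16, adjusted p = 0.0198). Smpd3, the neutral sphingomyelinase needed for mineralization, had an interaction of 2.29 (SE 0.46, adjusted p = 0.0486) at between 0.351 and 2.64 CPM, and overlaps Prmt7 on the opposite strand. Vdr, the vitamin D receptor, did not pass (-0.58, SE 0.14, adjusted p = 0.0882).

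**Figure D5:**
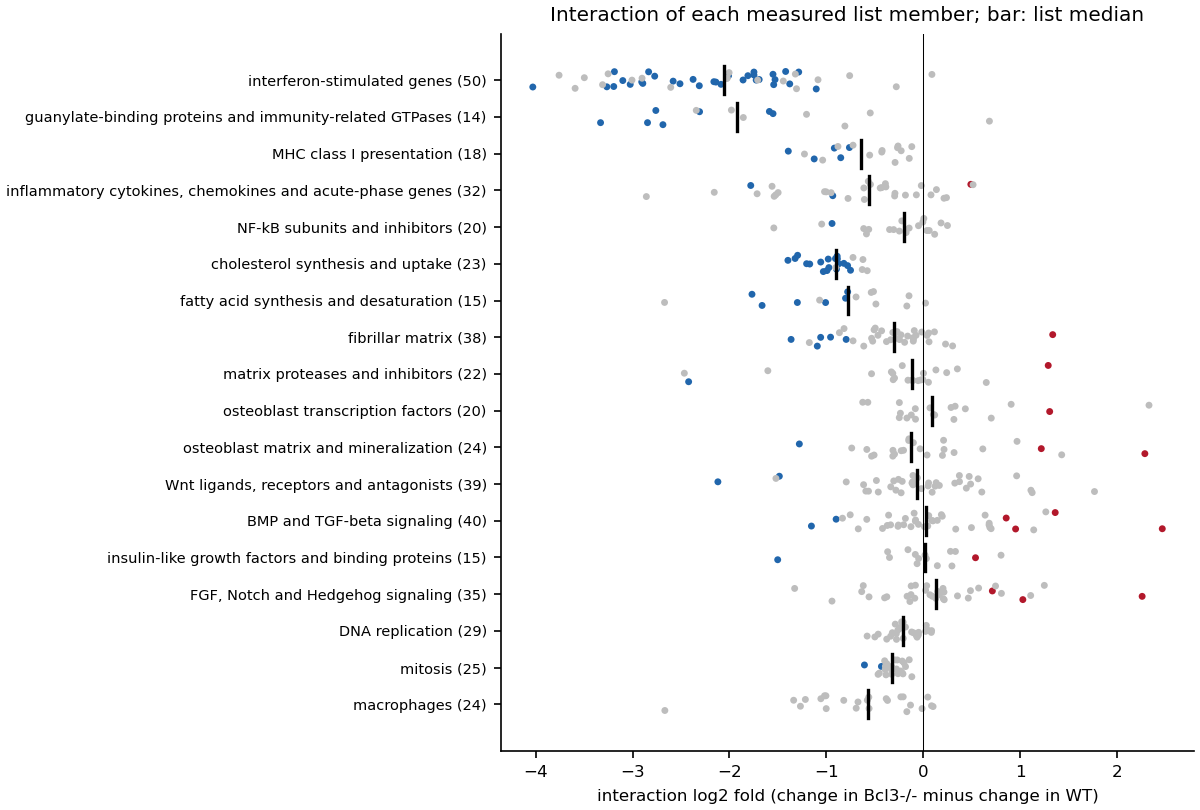
Interaction log2 fold (horizontal axis) of every measured member of 18 lists, with the number of members in brackets, called members in blue (lower) or red (higher), the others in grey, and a bar at the list median. The interferon-stimulated list has its median at -2.06 and the cholesterol list at -0.90, while the medians of the Wnt, BMP and osteoblast lists lie near 0.

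Ligands and secreted antagonists of growth factor pathways gave calls in both directions. In the BMP and TGF-beta list 4 of 40 were higher and 2 lower (15% called, beside 1.79% of all tested genes), with a median of 0.03. Nog, or noggin, which captures BMPs, went from 11.3, 10.3 and 5.91 CPM to 1.13, 0.982 and 1.71 CPM in WT and from 2.53, 2.898 and 3.16 CPM to 2.93, 1.94 and 2.00 CPM in the libraries labelled Bcl3-/-. It fell in WT, the order of the genotypes reversed without overlap, and the interaction was 2.47 (SE 0.46, adjusted p = 0.0431).

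Inhba, the activin A subunit, fell in both, with an interaction of 0.86 (SE 0.14), and Tgfb2 rose in cultures labelled Bcl3-/- by 0.93 against a change of -0.02 in WT (interaction 0.95, SE 0.19). Bmp2, the ligand, rose from 1.95, 2.25 and 3.44 CPM to 6.90, 7.86 and 10.9 CPM in WT and from 9.58, 6.27 and 7.51 CPM to 15.3, 11.5 and 15.5 CPM in the libraries labelled Bcl3-/-, which were above WT on both days (interaction -0.90, SE 0.17, adjusted p = 0.0427). Chrdl1, an antagonist related to chordin, rose by 3.60 and 2.45 (interaction -1.15, SE 0.23).

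In the Wnt list 2 of 39 passed (5.13%, beside 1.79% of all tested genes), both lower, with a median of -0.06. Sfrp1, a secreted decoy for Wnt ligands, stood at 100.8, 109.6 and 203.5 CPM in WT on day 1 and 633.1, 567.4 and 751.6 CPM on day 3, and at 830.9, 1326 and 1074 CPM and then 1380, 2055 and 2277 CPM in the libraries labelled Bcl3-/-. The gap of 3.01 log2 units on day 1 narrowed to 1.53 on day 3 (interaction -1.49, SE 0.19, adjusted p = 0.0198). Lgr5, the R-spondin receptor, rose by 3.75 in WT and 1.63 in cultures labelled Bcl3-/- (interaction -2.12, SE 0.30), and WT replicate 3 was above the other WT libraries on day 1 (11.8 against 2.85 and 3.05 CPM).

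Insulin-like growth factor binding proteins split, with 1 lower and 1 higher call of 15 genes (13.3%, beside 1.79% of all tested genes). Igfbp3 rose by 3.32 in WT and 1.82 in cultures labelled Bcl3-/- (interaction -1.50, SE 0.28), and Igfbp5, the binding protein stored in bone matrix, changed by 0.08 in WT and rose by 0.62 (interaction 0.54, SE 0.09). FGF, Notch and Hedgehog genes gave 3 calls of 35 (8.57%), all higher. These were the Notch targets Hey1 (2.26, SE 0.37) and Hes1 (0.71, SE 0.12) and the ligand Fgf2 (1.03, SE 0.19). All 3 fell in WT and did not pass in cultures labelled Bcl3-/-, and Fgf2 overlaps Nudt6 on the opposite strand. Hey1 was low, at 2.99, 3.71 and 1.73 CPM and then 0.528, 0.89 and 0.602 CPM in WT.

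Mitosis and DNA replication genes mostly fell in both genotypes, with 26 of 29 replication genes falling in each. Over all 16318 tested genes 3109 fell in WT and 2940 in cultures labelled Bcl3-/-. All 25 mitosis genes fell in each genotype, with median changes of -0.95 in WT and -1.22, all 25 interactions were below 0 and 2 (8%, beside 1.79% of all tested genes) were called. Mki67, the proliferation antigen, went from 192.9, 165.7 and 187.2 CPM to 119.4, 93.6 and 94.8 CPM in WT and from 172.0, 195.7 and 155.3 CPM to 64.1, 63.3 and 64.7 CPM in the libraries labelled Bcl3-/- (interaction -0.61, SE 0.12, adjusted p = 0.0476). It overlapped on day 1 and was apart on day 3. None of 29 DNA replication genes was called by edgeR (6 at an unadjusted p under 0.05), with a median interaction of -0.21. In contrast, Cdkn1c, the CDK inhibitor p57, rose from 6.92, 9.02 and 15.8 CPM to 94.4, 217.5 and 217.5 CPM in WT and from 82.3, 67.1 and 69.9 CPM to 446.0, 398.8 and 386.4 CPM in the libraries labelled Bcl3-/-, with an interaction of -1.57 (SE 0.20, adjusted p = 0.0198).

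Inflammatory and NF-kB genes include known targets and partners of Bcl3. Of 32 cytokines, chemokines and acute-phase genes 2 were lower and 1 higher (9.38%, beside 1.79% of all tested genes), with a median of -0.56. Il1rn, the interleukin-1 receptor antagonist, whose WT libraries held between 17.3 and 48.9 CPM over both days, did not pass in WT (-0.26) and fell by 2.04 in cultures labelled Bcl3-/-, from 44.4, 65.8 and 53.3 CPM to 13.3, 16.1 and 10.3 CPM (interaction -1.78, SE 0.26, adjusted p = 0.0266). Socs3, the feedback inhibitor of interleukin-6 signaling, changed by 0.07 and fell by 0.86 (interaction -0.93, SE 0.15). Csf1, the growth factor of macrophages and osteoclast precursors, fell by 0.72 and 0.23 (interaction 0.49, SE 0.10). It was also the 1 call among 12 regulators of osteoclasts (8.33%). Of 20 NF-kB subunits and inhibitors 1 (5%) passed, Nfkbiz, an atypical IκB like Bcl3, with -0.94 (SE 0.19). Of 21 immediate early genes 1 (4.76%) passed, Fos, which fell by 0.73 in WT and 1.92 in cultures labelled Bcl3-/- (interaction -1.20, SE 0.18).

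No gene passed among 12 complement components, 26 genes of glycolysis and the hypoxia response, 30 of ER folding and the ATF4 response and 20 p53 targets, by edgeR at the adjusted threshold, where the fit gave 2304 of all genes at an unadjusted p under 0.05. At that unadjusted threshold stood 6 of the complement, 7 of the glycolysis, 11 of the ER and 6 of the p53 genes. C4b, a complement component that rose in both genotypes, had an interaction of -1.05 (SE 0.26, adjusted p = 0.0927). Of 20 metallothioneins and NRF2 targets 1 passed (5%, beside 1.79% of all tested genes), the heme oxygenase gene Hmox1 (0.52, SE 0.10).

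Markers of other cell types were called in 4 lists, in which 1 to 2 members passed. None of the macrophage, osteoclast, lymphocyte, endothelial, skeletal muscle, fibroblast or neural markers passed by edgeR, and 6 of the 24 macrophage markers stood at an unadjusted p under 0.05. The fractalkine receptor gene Cx3cr1, a macrophage marker, had the lowest value with -2.67 (SE 0.58, adjusted p = 0.0666), as it stood at 10.8, 7.55 and 10.4 CPM in WT on day 3 and at 1.17, 1.36 and 0.21 CPM in the libraries labelled Bcl3-/-. Pparg, the adipogenic factor, went from 7.41, 9.65 and 8.30 CPM to 12.1, 14.8 and 14.9 CPM in the libraries labelled Bcl3-/- and changed by -0.08 in WT (interaction 0.81, SE 0.15, adjusted p = 0.0431). Summed over the adipocyte marker list, of whose 11 genes 6 were tested, levels were 34.0 to 46.7 CPM in WT on day 1 and 59.7 to 105.8 CPM on day 3. In the libraries labelled Bcl3-/- they were 102 to 124.7 CPM and then 252.1 to 316.2 CPM, above WT on both days, with Lep and Cidec at 0 in all libraries. Car3, also on that list, did not pass (1.36, SE 0.30, adjusted p = 0.0724).

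Besides Pparg, 1 of the 6 adipocyte markers measured, calls fell in 3 further marker lists, beside 1.79% called of all tested genes. In lists this short a single call already exceeds that share. Col11a1, which cartilage and bone share, passed among 13 chondrocyte markers (interaction -0.62, SE 0.11), of which 12 were below 0. Mylk, the kinase of myosin light chain, passed among 12 smooth muscle markers (-0.67, SE 0.13). It went against its list, in which 8 of the 12 interactions were above 0 and the median was 0.04. Of 8 pericyte markers 2 passed, the aminopeptidase gene Anpep (-0.76, SE 0.11) and Kcnj8, a potassium channel gene (-1.88, SE 0.38) at under 5 CPM. Of the 8 interactions 4 were below 0 and 4 above. Kcnj8 was called in 1 of 18 alternative fits, and its direction reversed on log2(FPKM + 1), filtered or not, while it stayed below 0 on log2(FPKM + 0.1).

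The pathway lists together held 15 of the higher and 87 of the lower calls, and 38 higher and 152 lower calls lay outside every one of them. Slc5a3, the myo-inositol transporter (chromosome 16, 92058322 to 92087473, plus strand), had the second smallest p. It fell from 128.3, 93.9 and 121.9 CPM to 70.0, 50.3 and 66.7 CPM in WT and rose from 73.3, 98.6 and 74.7 CPM to 113.1, 126.4 and 129.3 CPM in the libraries labelled Bcl3-/-. The genotypes overlapped on day 1 and not on day 3, and the interaction was 1.47 (SE 0.12, adjusted p = 0.00629), with exons shared with Mrps6 on the same strand. Nptx1, a pentraxin, changed by -0.36 in WT and rose by 2.16, from 1.11, 1.5 and 1.45 CPM to 5.14, 8.19 and 5.05 CPM (interaction 2.52, SE 0.26, adjusted p = 0.0158).

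Other higher calls outside the lists had the following values. Npnt, nephronectin, an integrin ligand, fell in WT from 93.1, 117.9 and 119.4 CPM to 31.0, 52.3 and 57.7 CPM and stayed between 106.3 and 140.8 CPM in the libraries labelled Bcl3-/- (interaction 1.43, SE 0.16, adjusted p = 0.0198). Draxin, a secreted guidance protein that binds Wnt co-receptors, fell in both, by 2.22 and 0.80 (interaction 1.42, SE 0.17). Sema4f, a semaphorin, fell by 2.86 and 1.53 (interaction 1.34, SE 0.23). Atoh8, a helix-loop-helix factor, fell by 1.07 in WT and changed by 0.22 (interaction 1.29, SE 0.26), and Arhgap20, a GTPase-activating protein, changed by 0.31 and rose by 1.82 (interaction 1.52, SE 0.27).

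Among the lower calls outside the lists stood Pcsk5, a proprotein convertase, with 17.6, 16.5 and 23.3 CPM in WT on day 1, 68.2, 75.1 and 75.4 CPM on day 3, and 66.5, 93.8 and 86.2 CPM and then 105.4, 133.0 and 135.7 CPM in the libraries labelled Bcl3-/-. These were above WT on both days, and the interaction was -1.34 (SE 0.13, adjusted p = 0.0158). Angpt1, the TIE2 ligand, rose by 2.30 and 1.38 (interaction -0.91, SE 0.10). Hid1, a protein of secretory granule formation, rose by 1.67 in WT and changed by 0.16 (interaction -1.52, SE 0.18).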

How the data were processed

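RNA was measured by paired-end, poly(A)-primed low-input RNA-seq in 12 libraries. The authors trimmed reads with Trim Galore, aligned them to GRCm38 with TopHat2 and deposited HTSeq counts per gene, and they also deposited Cufflinks FPKM values, used here only as an alternative. Tool versions and the strand setting of the counting are not given in the sources used here. Counts assigned to genes, 20009732 to 41953891 per library, were scaled by TMM, filtered by expression (filterByExpr over the 4 groups) and fitted in edgeR 4.0.16 (R 4.3.3) with the quasi-likelihood test. The design had a term for each of the 6 cultures and a change over time for each genotype, and the interaction was the difference of these changes, with p-values adjusted by Benjamini-Hochberg over all 16318 genes. The SE is the size of the fold change divided by the square root of F. The 5 entries that name no gene held 12.3% to 14.7% of counts and were left out.

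Each culture came from its own calvariae and had its own term in the fit, which removes differences in level between cultures. The p-values thus set the interaction against how the change from day 1 to day 3 varied among cultures of the same genotype, pooled over both genotypes. The test also draws each gene's spread toward that of other genes. A gene's own spread had 4 residual degrees of freedom, and the part drawn from other genes a median of 4.63. The culture codes in the labels pair day 1 with day 3. As a check, deviations from the group means of libraries with the same code correlated at 0.33, 0.24 and 0.25 in WT and at -0.13, -0.02 and -0.16 in Bcl3-/-, so the pairing shows in the WT libraries and not in the others. Genes were named by rule, as the 12 largest interactions in each direction among calls whose average level reached 1 log2 CPM, up to 4 genes with the smallest p per list, and the 5 genes with the smallest adjusted p per gap pattern. Some genes that the rule selects are not reported here. The comparison, gene lists and rules were chosen with earlier results of these data known. Alternatives covered the block, other tools and normalizations (DESeq2 1.42.0, limma 3.58.1), filters, FPKM with pseudocounts of 1 and 0.1, thresholds and leaving out each culture. Scripts were tested on simulated data. Promoter windows and motif matches came from RefSeq tables and gene positions from GENCODE on GRCm38.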

Additional observations from a re-analysis of the deposited data

Results flagged for a closer look

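The change from day 1 to day 3 differed between the genotypes, by a test of the difference itself, in 292 genes. The interactions of the genes named in the text are collected here in log2 units, as the change in cultures labelled Bcl3-/- minus the change in WT, with an adjusted p under 0.05 in edgeR's quasi-likelihood test for each.

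A higher change in cultures labelled Bcl3-/- was found for Nptx1 (2.52), Nog (2.47), Smpd3 (2.29), Hey1 (2.26), Arhgap20 (1.52), Slc5a3 (1.47), Npnt (1.43), Draxin (1.42), Sema4f (1.34), Eln (1.34), Sp7 (1.31), Atoh8 (1.29), Timp3 (1.29), Tnn (1.22), Fgf2 (1.03), Tgfb2 (0.95), Inhba (0.86), Pparg (0.81), Hes1 (0.71), Igfbp5 (0.54), Hmox1 (0.52) and Csf1 (0.49).

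Among the lower changes, the farthest from 0 were those of Ifi44 (-4.03), Mx2 (-3.27), Usp18 (-3.19), Irf7 (-3.19), Zbp1 (-3.10), Oas2 (-3.02), Dhx58 (-2.90), Oas1b (-2.89), Gbp3 (-2.85), Slfn8 (-2.84), Mmp13 (-2.42), Gbp7 (-2.31) and Lgr5 (-2.12). Intermediate values were those of Kcnj8 (-1.88), Il1rn (-1.78), Scd1 (-1.77), Samd9l (-1.75), Ifi203 (-1.72), Acss2 (-1.66), Gbp2 (-1.59), Cdkn1c (-1.57), Gbp9 (-1.55), Hid1 (-1.52), Igfbp3 (-1.50), Sfrp1 (-1.49), Nlrc5 (-1.39), Col14a1 (-1.36), Pcsk5 (-1.34), Tm7sf2 (-1.32), Fads2 (-1.30), Ifit2 (-1.29) and Spp1 (-1.28). Nearest to 0 were those of Fos (-1.20), Chrdl1 (-1.15), Tap1 (-1.13), Aspn (-1.09), Lum (-1.06), Hmgcs1 (-1.06), Acly (-1.01), Idi1 (-0.98), Fbln1 (-0.96), Nfkbiz (-0.94), Socs3 (-0.93), Angpt1 (-0.91), Bmp2 (-0.90), Tapbp (-0.85), Postn (-0.80), Erap1 (-0.76), Anpep (-0.76), Mylk (-0.67), Adamts2 (-0.63), Col11a1 (-0.62) and Mki67 (-0.61).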

How the results depend on the processing

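Counts of called genes are given in all, higher and lower in cultures labelled Bcl3-/-, against 292, 53 and 239. Without the culture block, that is, with no pairing of day 1 and day 3, they were 183, 28 and 155, and 150 of the 183 were shared with the blocked fit. DESeq2 gave 598, 118 and 480 with the block and 488, 95 and 393 without it. With no filter on low counts there were 1168, 166 and 1002 calls, and with a floor of 1 CPM in 6 libraries 188 and, lower, 146. On log2(FPKM + 1) there were 112, 25 and 87, on log2(FPKM + 0.1) 97, 13 and 84, and with FPKM filtered at 1 in 3 libraries 0, 0 and 0 by limma, with 2024 at an unadjusted p under 0.05. At an adjusted p under 0.01 there were 2, 1 and 1, at 0.1 there were 621, 114 and 507, and with an absolute log2 fold over 1 there were 163, 27 and 136. Leaving out 1 culture gave 0 to 554 in all, 0 to 177 higher and 0 to 503 lower, with the fewest without WT culture 1, WT culture 2 or Bcl3-/- culture 2. The cause of these shifts was not tested.

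Genes called from day 1 to day 3 ranged from 3898 (without WT culture 2) to 7631 in WT and from 3689 (without Bcl3-/- culture 2) to 6125 in Bcl3-/- when a culture was left out. They numbered 4208 and 3267 at an adjusted p under 0.01 and 1588 and 1413 with a log2 fold over 1. The interaction of Kcnj8 reversed to 0.103 on log2(FPKM + 1), filtered or not. The difference in the step along the first principal component, which passed no test, reversed to -2.60 on FPKM and ranged from -6.54 to 17.1 when a culture was left out, below 0 without Bcl3-/- culture 2 and without Bcl3-/- culture 3 (-5.40). Over the named genes 929 alternatives kept direction and side of the threshold, 530 kept the direction only, 27 newly passed and 2 reversed. No gene was called in all 6 fits that left out a culture, and 89 were called in all 9 other fits on counts. A direction that persists there is partly set by the choice of genes whose culture changes do not overlap. With 3 cultures per genotype and 4 residual degrees of freedom, an interaction that missed the threshold is not shown to be absent.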
